A study of Mus musculus with 8 samples.

Results

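The MHC class II genes and their master regulator are a set of 7 mouse genes, Cd74, H2-Aa, H2-Ab1, H2-Eb1, H2-DMa, H2-DMb1 and Ciita, chosen by symbol from a table of 37991 genes. Each symbol matched 1 row of the table, and all 7 genes had enough reads to be among the 12466 genes tested. RNA was sequenced from cardiomyocytes, the beating muscle cells, taken from adult hearts of alpha-MHC MERCREMER MADM mice. In these mice a tamoxifen-activated Cre recombinase is driven by the cardiomyocyte promoter of alpha myosin heavy chain, and the MADM reporter (mosaic analysis with double markers) can leave a cell with a single color when it divides. All hearts had received adenovirus carrying 4 cell cycle genes (4F), and cells were collected 2 weeks later. The groups were 4 libraries of single colored cells, which per the labels had gone through the cell cycle, and 4 libraries of double colored cells, which had the same treatment and had not. Beyond adult, the labels do not give the age of the mice, nor their number, or whether a library pooled animals. The genes were chosen with the difference between these groups already known, so their own differences are a description, and how many of them were called is given beside the share of all genes called and supports nothing.

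MHC class II molecules are pairs of an alpha and a beta chain that present peptides from endosomes to CD4+ T cells. They are textbook products of dendritic cells, macrophages and B cells, and interferon gamma can turn them on in other cells. The invariant chain, encoded by Cd74, escorts new class II molecules and blocks their groove, H2-DM then loads the peptide, and Ciita, a coactivator that binds no DNA itself, switches on the whole set through factors held at shared promoter elements. Those elements, the X box bound by RFX and the Y box bound by NF-Y, lie close to the start of class II genes.

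Promoter sequences of GRCm38.p6 were found in RefSeq for 4 of the 7 genes, H2-Aa, H2-Eb1, H2-DMb1 and H2-DMa. H2-Ab1, Cd74 and Ciita were not matched. The 120 bases before the gene start are shown for H2-DMb1, H2-Aa and H2-Eb1, because both shared elements are visible in them, with the letters GNAACT (a core of the X box) and TGATTGG (a core of the Y box) in capitals.
H2-DMb1, chr17:34153071-34153190, plus strand: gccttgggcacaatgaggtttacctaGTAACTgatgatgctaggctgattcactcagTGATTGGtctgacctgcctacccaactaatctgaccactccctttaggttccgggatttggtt
H2-Aa, chr17:34287824-34287943, minus strand: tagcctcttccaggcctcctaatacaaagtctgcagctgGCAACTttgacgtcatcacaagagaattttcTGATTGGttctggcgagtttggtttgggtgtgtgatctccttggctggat
H2-Eb1, chr17:34305747-34305866, plus strand: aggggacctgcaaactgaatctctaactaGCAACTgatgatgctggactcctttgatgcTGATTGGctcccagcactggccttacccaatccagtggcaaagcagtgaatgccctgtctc
The X core began 94, 81 and 91 bases before the start and the Y core 63, 50 and 61 bases before it, with 25, 25 and 24 bases between them. These letters were chosen after these promoters had been read, so their presence in the 3 is not a result. Searched on both strands over 300 bases of all 32851 promoters, the Y core was found in 7.82%, the X core in 42.8%, and the X core followed by the Y core on the same strand after 15 to 30 bases in 0.155% (51 promoters of 48 genes). H2-Eb2, another class II chain gene, was also among those 48. Neither promoter window listed for H2-DMa, ending at 34122831 and 34125517, held the spaced pair. Both windows lie farther from H2-DMb1 than the H2-DMa start does in the mm9 coordinates of the counted gene. The bases before that start were therefore not searched, and whether H2-DMa has the pair there is not known.

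The libraries held 25604705 to 30082278 counted reads in single colored cells and 23820700 to 30057373 in double colored cells. Mitochondrially encoded genes took 77.5% to 85.9% of them in single and 84.2% to 88.3% in double colored cells. This left 3750616 to 6112595 nuclear-encoded reads in single and 3503353 to 3850391 in double colored cells. Levels are given as CPM, read counts scaled to a common library total with TMM factors, and as CPM per kb of exon where genes are compared with each other. The summed level of 6 cardiomyocyte markers, among them Myh6 and Tnnt2, was 4805 to 8452 CPM in the single colored group and 9211 to 10023 CPM in the double colored group, so the labelled cell type was plain in every library. In bulk libraries fewer cells of a type and less RNA per cell cannot be told apart. Separate animals are not stated for the replicates, and the p-values therefore speak only of variation among the libraries, some of which may be technical.

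All 7 genes had higher mean levels in single than in double colored cells, with log2 fold changes from 0.61 to 1.47 and a median of 1.35, while the median of all 12466 tested genes was −0.01. Of the 7, 4 had an edgeR adjusted p under 0.05 and a higher level (Cd74, H2-Aa, H2-Ab1 and Ciita), where 2.32% of all tested genes were called higher and 2.48% were called in either direction. In 3 of the 7, every single colored library lay above every double colored one, which held for 5.37% of all tested genes. The number called depended on the libraries, at 0 without single colored replicate 1 or without both libraries numbered 4, 1 without both numbered 2, and 2 without double colored replicate 4 or both numbered 1. With any 1 library left out, Ciita was among the calls only when that was single colored replicate 2. These counts describe genes selected on this contrast.

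**Figure D1:**
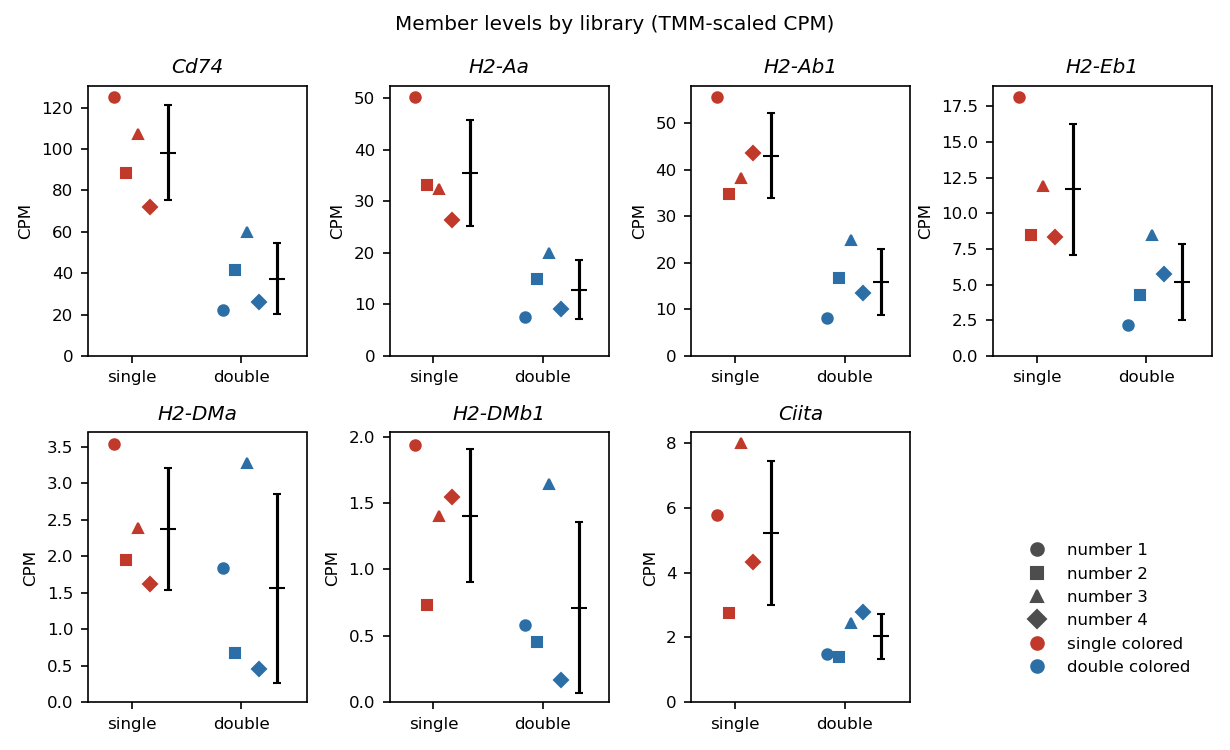
Level of each of the 7 genes in every library, in TMM-scaled CPM on a linear axis from 0, with single colored libraries on the left and double colored on the right. Marker shapes give the library number, and bars give the mean ± SD (n = 4). Cd74, H2-Aa and H2-Ab1 do not overlap between groups, while the other 4 genes do.

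Cd74 (ENSMUSG00000024610, mm9 chromosome 18, 60963502 to 60972300), the invariant chain, was measured at 125, 88.6, 107 and 71.8 CPM in single colored replicates 1 to 4, and at 22.1, 41.3, 59.7 and 26.0 CPM in double colored replicates 1 to 4. The lowest single colored library lay above the highest double colored one. The means were 98.2 ± 23.1 CPM in the single colored group and 37.3 ± 17.1 CPM in the double colored group (SD, n = 4 each), a log2 fold change of 1.40 ± 0.27 (SE). The values rest on 13265 reads in single and 3443 reads in double colored cells.

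H2-Aa (ENSMUSG00000036594, mm9 chromosome 17, 34406276 to 34424772), the alpha chain of the I-A molecule, stood at 50.2, 33.2, 32.4 and 26.3 CPM in single colored replicates 1 to 4 and at 7.53, 14.8, 19.9 and 9.06 CPM in double colored replicates 1 to 4. The groups did not overlap. Replicate 1 was the highest of the single and the lowest of the double colored libraries, and the log2 fold change of 1.47 ± 0.29 (SE) was the largest of the 7. Its beta chain partner H2-Ab1 (ENSMUSG00000073421, chromosome 17, 34400154 to 34406363) had 55.7, 34.9, 38.2 and 43.6 CPM in single colored replicates 1 to 4 and 8.24, 16.7, 25.0 and 13.6 CPM in double colored replicates 1 to 4. These also did not overlap, with a log2 fold change of 1.44 ± 0.27. The exons of both genes overlap by 17 bases on opposite strands, which is 0.856% of the exons of H2-Aa and 1.03% of those of H2-Ab1.

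H2-Eb1 (ENSMUSG00000060586, chromosome 17, 34442828 to 34453144), the beta chain of the I-E molecule, had 18.1, 8.44, 11.9 and 8.33 CPM in single colored replicates 1 to 4 and 2.18, 4.27, 8.50 and 5.72 CPM in double colored replicates 1 to 4. Here the groups overlapped, since double colored replicate 3 lay above single colored replicates 2 and 4. The log2 fold change was 1.18 ± 0.36 (SE), and 0.64 without both libraries numbered 1.

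The genes of the H2-DM peptide loading factor were measured at far lower levels. H2-DMa (ENSMUSG00000037649, chromosome 17, 34272127 to 34276046), its alpha chain, had 3.53, 1.95, 2.39 and 1.63 CPM in single colored replicates 1 to 4 and 1.84, 0.681, 3.28 and 0.459 CPM in double colored replicates 1 to 4. H2-DMb1 (ENSMUSG00000079547, chromosome 17, 34290017 to 34297168), a beta chain, had 1.94, 0.732, 1.40 and 1.55 CPM in single colored replicates 1 to 4 and 0.586, 0.454, 1.64 and 0.167 CPM in double colored replicates 1 to 4. Both overlapped between groups, and in both double colored replicate 3 lay above the other double colored libraries. Their log2 fold changes were 0.61 ± 0.48 and 0.98 ± 0.53 (SE), on 324 and 188 reads in single and 146 and 66 reads in double colored cells. Leaving out 1 library moved H2-DMb1 to between 0.65 (without double colored replicate 4) and 1.80 (without double colored replicate 3), and H2-DMa to between 0.30 and 1.25 without the same libraries. H2-DMa also moved to 0.34 without single colored replicate 1 and to 0.36 without double colored replicate 2. H2-DMb1 shares 22.7% of its 50-base stretches with its neighbor H2-DMb2, in transcripts of the reference annotation, so reads from those stretches fit both genes and its level is uncertain. H2-DMb2 itself had 14 reads in single and 3 in double colored cells.

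Ciita (ENSMUSG00000022504, mm9 chromosome 16, 10480237 to 10527657) had 5.79, 2.75, 7.98 and 4.32 CPM in single colored replicates 1 to 4 and 1.51, 1.41, 2.46 and 2.80 CPM in double colored replicates 1 to 4. Only single colored replicate 2 fell inside the double colored range. The log2 fold change was 1.35 ± 0.32 (SE), from 716 reads in single and 191 in double colored cells. Set against the other 6 genes Ciita overlapped between the groups, at 2.71 ± 1.05 in single and 3.13 ± 1.51 in double colored cells per 100 CPM of their sum (SD, n = 4). Unlike those genes, it was highest in replicate 3 of the single and replicate 4 of the double colored libraries.

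Same-numbered libraries were also set against each other, since deviations from the group means correlated more within a number than across numbers. Cd74, H2-Aa, H2-Ab1, H2-Eb1 and Ciita were higher in the single colored library of all 4 numbers, and H2-DMa and H2-DMb1 in 3 of 4. The ratio was steepest in number 1, at 5.66 for Cd74, 6.66 for H2-Aa, 6.76 for H2-Ab1 and 8.33 for H2-Eb1. In number 3 the same 4 genes had ratios of 1.80, 1.63, 1.53 and 1.40, and H2-DMa and H2-DMb1 were lower in the single colored library, at 0.729 and 0.856. Number 4 had the highest ratio of H2-DMb1, 9.26, which rests on 39 reads in the single and 4 in the double colored library.

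**Figure D2:**
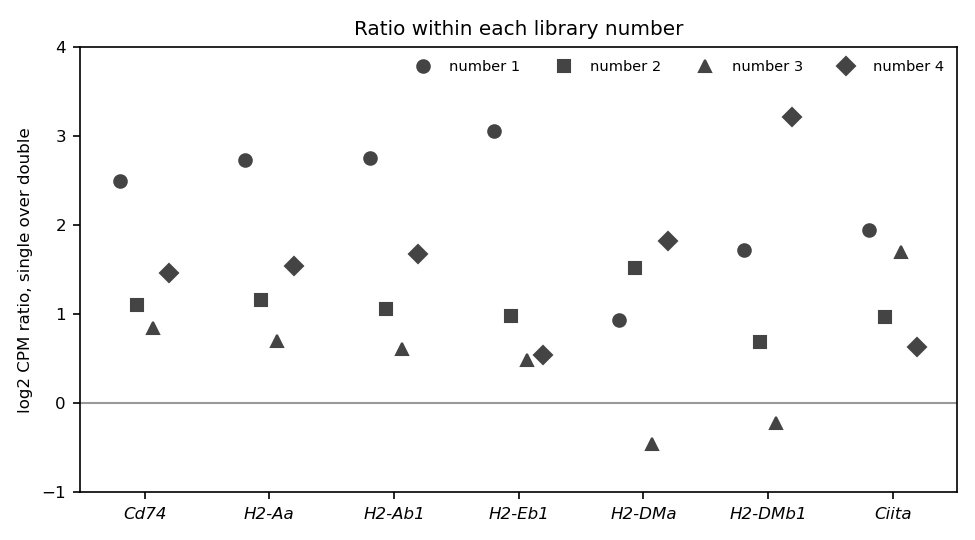
Log2 ratio of CPM, single over double colored, within each library number for the 7 genes. Points above the line at 0 are higher in the single colored library, and the 2 points below it are H2-DMa and H2-DMb1 in number 3.

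Per length the order of mean levels was the same in both groups. Cd74 came first, at 69.7 ± 16.4 CPM per kb in single and 26.4 ± 12.1 CPM per kb in double colored cells (SD, n = 4), and its lowest library lay above the highest library of H2-Ab1 in either group. H2-Ab1 followed at 26.2 ± 5.55 and 9.67 ± 4.27, H2-Aa at 17.9 ± 5.15 and 6.46 ± 2.86, and H2-Eb1 at 9.83 ± 3.86 and 4.35 ± 2.24 CPM per kb in single and double colored cells. The ranges of these 3 neighbors overlapped, but within each library H2-Ab1 lay above H2-Aa in 8 of 8, and H2-Aa above H2-Eb1 in 4 of 4 single and 3 of 4 double colored libraries. Far lower means followed for H2-DMa, at 1.45 ± 0.508 and 0.954 ± 0.789, H2-DMb1, at 0.951 ± 0.340 and 0.482 ± 0.435, and Ciita, at 0.839 ± 0.358 and 0.329 ± 0.111 CPM per kb. The ranges of H2-DMa, H2-DMb1 and Ciita overlapped from neighbor to neighbor in either group. H2-Eb1 and H2-DMa did not overlap in single colored cells but did in double colored cells.

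**Figure D3:**
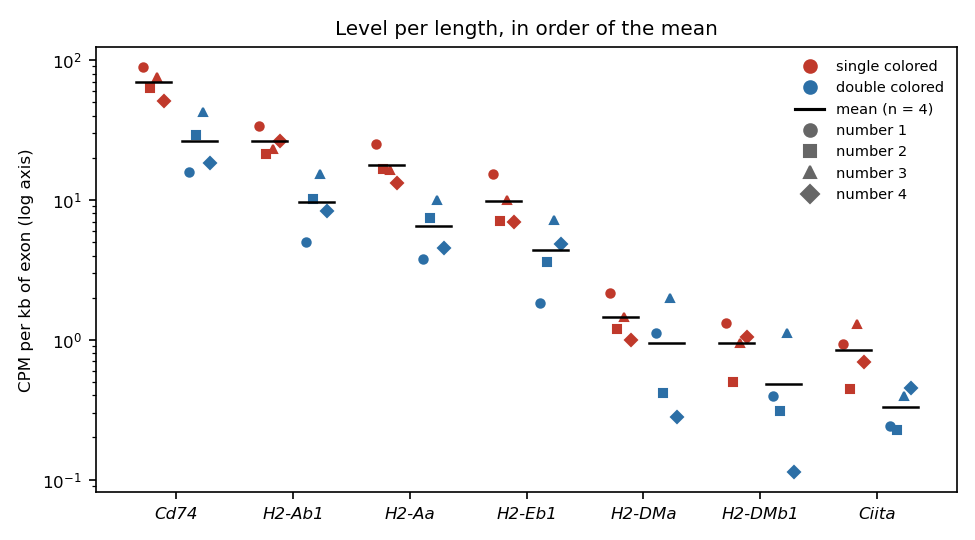
Level per length of each gene, in CPM per kb of exon on a log axis, with single colored libraries in red to the left of double colored libraries in blue and the group mean as a line (n = 4). Genes run in order of the mean, from Cd74 to Ciita, and the order is the same in both groups.

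The summed level of the 6 genes other than Ciita did not overlap between groups, while the share of each of the main 4 in it did. The sum was 192 ± 44.8 CPM in the single colored group and 73.5 ± 33.2 CPM in the double colored group, or 0.133% ± 0.0403 and 0.0462% ± 0.0196 of nuclear-encoded reads (SD, n = 4). Cd74 made up 55.3% ± 3.81 of their summed level per length in single and 54.6% ± 2.97 in double colored cells, and H2-Ab1 21.1% ± 3.76 in single and 20.0% ± 1.96 in double colored cells. H2-Aa made up 14.1% ± 1.28 in single and 13.4% ± 0.911 in double colored cells. H2-Eb1 had 7.61% ± 1.16 in single and 8.99% ± 3.03 in double colored cells.

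Within groups the chain genes varied together. Over the 8 libraries, deviations from the group means in log2 CPM correlated by 0.97 between Cd74 and H2-Aa, 0.88 between H2-Aa and H2-Ab1, and 0.88 between H2-Ab1 and H2-Eb1. H2-DMa and H2-DMb1 correlated by 0.87 with each other, and each by 0.27 to 0.63 with Cd74 and the I-A and I-E chain genes. Ciita had correlations of 0.18 to 0.64 with those 4 genes, the highest with H2-Eb1. These values describe 8 libraries that share their depth and scaling, and few reads lie behind the H2-DM genes and Ciita.

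A row next to H2-Eb2 on chromosome 17 separated the library numbers. H2-Ea-ps (ENSMUSG00000036322) is the alpha chain gene that pairs with H2-Eb1 to form I-E, and it is annotated as a polymorphic pseudogene, because several inbred mouse strains carry a deletion that leaves it silent. It was examined after its values had been seen. It had 637, 255, 386 and 0 reads in single and 60, 70, 136 and 0 reads in double colored replicates 1 to 4. Per 100 reads of H2-Aa this was 33.2, 26.8 and 31.0 in single and 33.3, 21.4 and 29.4 in double colored replicates 1 to 3. Both libraries numbered 4 had none, which allows up to 0.452 (3 reads) in the single and up to 1.38 in the double colored library, by counting error only. Of the 37991 genes, only H2-Ea-ps had no read in both libraries of a number and at least 50 in each of the other 6. No gene had this pattern in any of the 24 other pairs of libraries. Both statements hold for the cutoff of 50 reads, which lies just below the lowest nonzero count of H2-Ea-ps, 60.

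The libraries numbered 4 also stood apart in the ratio of the I-A chains. H2-Ab1 had 166 reads per 100 of H2-Aa in the single and 150 in the double colored library of number 4, against 105 to 118 in the other single and 109 to 126 in the other double colored libraries. Cd74 showed no such split, with 273 and 287 reads per 100 of H2-Aa in number 4 and 249 to 331 in the other 6 libraries. H2-Eb1 stood apart only in the double colored library of number 4, at 63.1 against 28.7 to 42.6 in the other double colored libraries. In the single colored library of number 4 it had 31.6, within the 25.4 to 36.6 of the other single colored libraries. The labels give no strain or H2 haplotype of the mice.

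**Figure D4:**
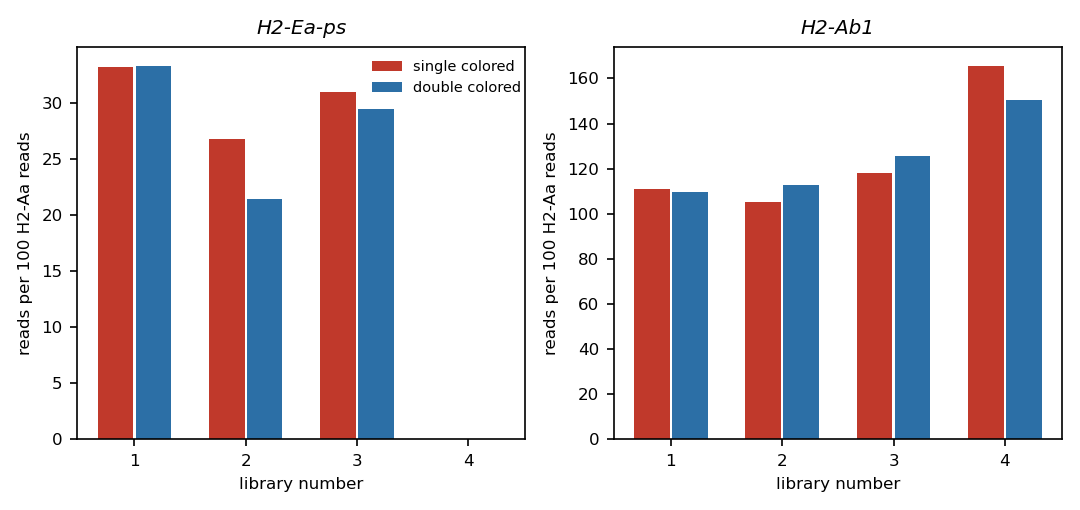
Reads of H2-Ea-ps (left) and H2-Ab1 (right) per 100 reads of H2-Aa by library number, with single colored libraries in red to the left of double colored libraries in blue. H2-Ea-ps has no bar in number 4, where both libraries had 0 reads, and H2-Ab1 is highest there, at 166 and 150.

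Of 44 other genes of the class II pathway, 43 were in the table by symbol and 36 were tested. The gene not found had been listed as H2-Ea, and the row H2-Ea-ps described above was not counted. Of the 36, 5 rose in single colored cells and none fell (edgeR quasi-likelihood test, adjusted p under 0.05), where 2.32% of all tested genes were called higher and 0.16% lower. Their median log2 fold change was 0.50, with 29 positive. With the replicate number as a block 10 of the 36 were higher, where 4.97% of all tested genes were. The lists were drawn up with earlier results of these data known.

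In the list for antigen processing and class II turnover, which holds endosomal proteases, a reductase and ubiquitin ligases, 2 of 10 genes rose. Ctss, the protease that removes the invariant chain, had 92.9, 68.0, 50.8 and 68.1 CPM in single colored replicates 1 to 4 and 15.8, 18.6, 11.8 and 10.5 CPM in double colored replicates 1 to 4 (log2 fold change 2.30 ± 0.21, edgeR adjusted p = 8.05e-05). The groups were far apart, and the call held whichever library was left out. Ifi30, a thiol reductase that unfolds antigens, had 9.19, 6.38, 3.56 and 5.79 CPM in single colored replicates 1 to 4 and 2.59, 3.22, 2.33 and 2.25 CPM in double colored replicates 1 to 4 (1.26 ± 0.27, edgeR adjusted p = 0.0182). Its call was lost without single colored replicate 1 or double colored replicate 1, 3 or 4 (adjusted p up to 0.0818). Ctsh, another lysosomal protease, averaged 12.6 ± 1.68 CPM in the single colored group and 7.76 ± 1.62 CPM in the double colored group (edgeR adjusted p = 0.0544, 0.0110 with the block and 0.0415 without double colored replicate 3).

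Of 12 transcription factors that act on class II genes or on Ciita, 1 rose, the myeloid factor Spi1, with 2.36, 2.65, 2.24 and 1.78 CPM in single colored replicates 1 to 4 and 0.879, 0.908, 0.863 and 0.960 CPM in double colored replicates 1 to 4 (log2 fold change 1.32 ± 0.30, edgeR adjusted p = 0.0261). It rests on 20 to 23 reads in each double colored library, and the call was lost without single colored replicate 1 or 2 or any double colored library (adjusted p up to 0.0885). For Irf8, a factor of myeloid cells, the log2 difference was 0.75 ± 0.29 (SE), at an edgeR adjusted p of 0.216. Irf1, named for its exceptions, had 0.86 ± 0.33 at an edgeR adjusted p of 0.224. It was called higher with the block, with no filter on low counts and without single colored replicate 2. The RFX subunit gene Rfx5 had 0.85, Rfxap −0.85 and Rfxank −0.16, and the NF-Y subunit genes Nfya, Nfyb and Nfyc 0.03, 0.25 and −0.21 on the log2 scale, none past the threshold.

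In interferon gamma signaling 1 of 5 tested genes rose, the kinase gene Jak2, at 15.8 ± 1.88 CPM in the single colored group and 10.2 ± 0.932 CPM in the double colored group (log2 fold change 0.63 ± 0.15, edgeR adjusted p = 0.0350). It lost its call without single colored replicate 1 or 4 or any double colored library (adjusted p up to 0.135). Ifng, the cytokine itself, was measured by 91 reads in the single and 21 in the double colored libraries, with a log2 difference of 1.57 ± 0.78 (SE) and an edgeR adjusted p of 0.366. For Jak1, the partner kinase, the difference was 0.23 ± 0.13 at an edgeR adjusted p of 0.444. Of 4 tested ligand and partner genes of CD74, Cd44, which signals together with it, rose, with 28.7, 21.8, 12.3 and 18.9 CPM in single colored replicates 1 to 4 and 10.5, 8.54, 8.98 and 6.18 CPM in double colored replicates 1 to 4 (1.25 ± 0.23, edgeR adjusted p = 0.00761). Its call held whichever 1 library was left out, but not without both libraries numbered 2 or both numbered 4. For the ligand gene Mif the log2 difference was −0.36 ± 0.43 (0.16 with library totals alone), and for Cxcr4, a receptor partner, 0.57 ± 0.39, at edgeR adjusted p of 0.767 and 0.542.

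Of 5 tested costimulatory and inhibitory ligand genes, 0 passed the edgeR threshold, 0 had an unadjusted p under 0.05 and 0 were called by DESeq2. Cd274, an inhibitory ligand named for this exception, was called with the block and with no filter, and Cd86 and Cd40 with library totals alone. Cd86 and Cd80, which costimulate T cells, had log2 fold changes of 0.55 ± 0.27 and 0.86 ± 0.47, and Cd40 0.88 ± 0.50 (edgeR adjusted p = 0.366, 0.419 and 0.443). The further class II chain genes H2-Oa, H2-Ob and H2-Eb2 were too low to test, with 32, 61 and 30 reads in single and 7, 15 and 2 reads in double colored cells.

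Markers of cells that present antigen were read beside the class II values. All 10 macrophage and monocyte markers were tested and 2 rose (Adgre1 and Ccr2). Of the 10, 9 had a positive log2 fold change, and the median of the list was 0.74. The summed level of the 10 was 134 to 231 CPM in the single colored group and 86.2 to 114 CPM in the double colored group. The 8 dendritic cell markers summed to 9.23 to 19.6 CPM in the single and 10.3 to 14.3 CPM in the double colored group. Zbtb46 alone averaged 7.84 CPM of a mean sum of 14.7 in the single and 8.79 CPM of 11.9 in the double colored group. Of 3 tested markers 1, Itgax, rose. Of these 3, 2 had a positive log2 fold change, while Zbtb46 had −0.17. The 5 B cell markers were too low to test, with Pax5 at 0 reads in every double colored library and at 3 reads in all single colored libraries together. Of 6 T cell markers 5 rose, and they summed to 11.2 to 25.2 CPM in the single colored group and 1.38 to 3.80 CPM in the double colored group. The 6 fibroblast markers summed to 402 to 1053 CPM in the single colored group and 185 to 408 CPM in the double colored group. Only Col1a1 was called higher. It had a log2 fold change of 1.76 and Col1a2 one of 1.44, while Pdgfra, Dcn, Lum and Tcf21 had 0.09, −0.10, 0.29 and −0.79. The median of the fibroblast list was 0.19, so the higher sum did not extend to the list as a whole. None of 6 endothelial and 6 cardiomyocyte markers was called. All 6 cardiomyocyte markers had a negative log2 fold change (median −0.45), against 4 of the 6 endothelial markers (median −0.13). In 3 of the cardiomyocyte markers every single colored library lay below every double colored one, which held for 469 of all 12466 tested genes. The part of these cell types in the class II levels was not tested.

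The summed macrophage markers, of which Lyz2 alone averaged 92.7 CPM in the single colored group and 55.7 CPM in the double colored group, were ordered differently from class II within the double colored libraries. The 6 chain genes summed to 42.5, 78.3, 118 and 55.0 CPM in double colored replicates 1 to 4, where the macrophage markers summed to 114, 107, 95.7 and 86.2 CPM. Replicate 1 was thus lowest in class II and highest in macrophage markers. In single colored replicates 1 to 4 the sums were 255, 168, 194 and 153 CPM for the chain genes and 231, 159, 138 and 134 CPM for the macrophage markers, with replicate 1 highest in both. The ratio of chain genes to macrophage markers was 1.05 to 1.41 in single and 0.373 to 1.23 in double colored cells, so the groups overlapped by double colored replicate 3. Single macrophage markers varied in how far they went with class II: deviations from the group means correlated with those of Cd74, H2-Aa, H2-Ab1 and H2-Eb1 by 0.73 for Ccr2 and 0.41 for Csf1r, but by 0.07 for Lyz2 and −0.11 for C5ar1, over 8 libraries. The sum of the T cell markers was highest in replicate 1 of the single and replicate 3 of the double colored libraries, like class II. This did not hold for each marker, since Cd3e was highest in replicate 1 of the double colored libraries, at 2.18 CPM. The same correlations ran from −0.26 for Cd3e to 0.64 for Cd3g and 0.94 for Cd4.

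**Figure D5:**
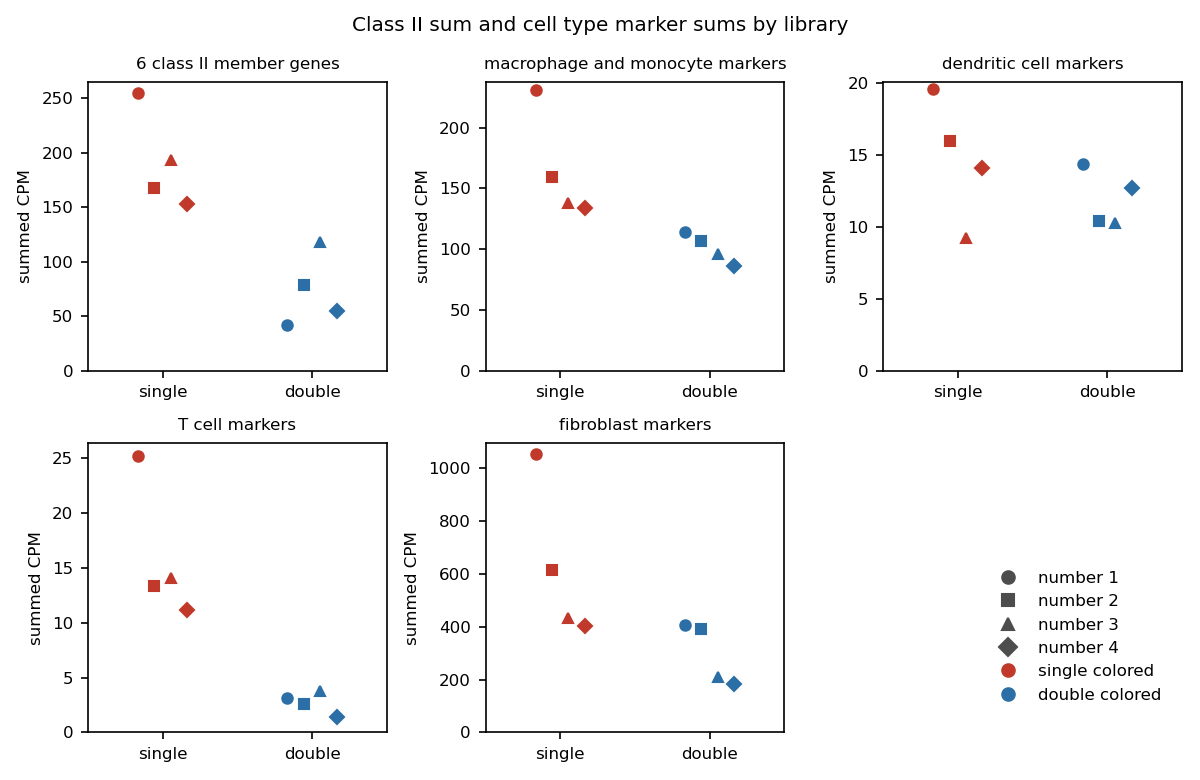
Summed CPM per library of the 6 class II member genes and of marker lists of macrophages and monocytes, dendritic cells, T cells and fibroblasts, with single colored libraries on the left and double colored on the right and shapes for the library number. The class II sum is 153 to 255 CPM in the single colored group and 42.5 to 118 CPM in double colored libraries. The dendritic cell sums, of which Zbtb46 is the largest part on average, overlap between groups.

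Among 4782 other tested genes with a mean of at least 5 CPM, the 5 whose deviations from the group means were most like those of Cd74, H2-Aa, H2-Ab1 and H2-Eb1 over the 8 libraries were Xrn2, Nup153, Ubn2, Crim1 and Paxbp1, with r from 0.93 to 0.97. They are the extremes of a ranking whose median was −0.03 and 95th percentile 0.62, and none of the 5 was called between the groups (log2 fold changes −0.26 to 0.25). Cd4, the co-receptor that binds class II, had an r of 0.94 but lay under the 5 CPM minimum, and is named after its values were seen. It had 6.96, 3.45, 3.12 and 2.26 CPM in single colored replicates 1 to 4 and 0.209, 0.409, 1.38 and 0.376 CPM in double colored replicates 1 to 4, where the double colored values rest on 5 to 32 reads.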

How the data were processed

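The submitters' processing notes name STAR 2.5.2b, featureCounts of Subread and the mm9 build. The authors deposited raw counts per gene, per the file headers, which do not call them estimated counts, and all values are whole numbers. The headers name a mapping quality of 30. Strand setting and read length are not given in the sources used here. In the authors' deposited table the log2 fold changes have double colored over single colored, and those of the members were −1.46 to −0.59. Of the Ensembl identifiers, 32919 matched a symbol.

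All 8 libraries entered 1 fit in edgeR 4.0.16 (R 4.3.3), without a block. It used filterByExpr (minimum count 10), TMM factors and robust quasi-likelihood testing, with p adjusted by Benjamini-Hochberg over 12466 genes and called at 0.05. DESeq2 1.42.0 was an alternative, as were other scalings, no filter, the block and omitted libraries. Correlations used log2 CPM with a prior count of 2. Errors are SD for CPM and SE for fold changes.

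Members and lists were chosen with earlier results of these data known. Named genes were the 7 members, the 3 genes of each pathway list with the smallest p, and the 5 genes most alike, apart from a gene that is not reported here; others are named as examples chosen after their values were seen. Libraries with the same number correlated by 0.257, 0.126, 0.136 and 0.139 in their deviations from the group means, and by at most 0.108 with other numbers, so by the rule of 0.1 for every pair the numbers pair the libraries. The calls reported still come from the fit without a block. The blocked fit is given beside them for Ctsh, Irf1 and Cd274, and as a count for the pathway lists together. It also called Ctsb higher, which the edgeR fit without a block did not (adjusted p = 0.164). What a number stands for is not in the labels.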

Additional observations from a re-analysis of the deposited data

Results flagged for a closer look

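Of 60 groups of 4 libraries checked for a library far from the other 3, 2 stood out, and chance alone flags about 1 in 20. Jak1 in single colored replicate 2 was 37.3 CPM, below 41.8 to 42.3 CPM in the other 3 single colored libraries. The B cell markers summed to 0.544 CPM in double colored replicate 1, above 0 to 0.0454 CPM in the other 3 double colored libraries. These sums rest on 13, 1, 0 and 1 reads in double colored replicates 1 to 4, near the floor of the counts.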

How the results depend on the processing

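All 7 members kept a positive log2 fold change under all 18 alternatives, from 1.08 to 1.91 for Cd74 and from 0.30 to 1.26 for H2-DMa, and their median ran from 1.07 to 1.90. Of all tested genes 289 were higher and 20 lower in single colored cells, against 455 and 101 with DESeq2, 642 and 163 with no filter, and 619 and 320 with the replicate block. Scaling by library totals alone, which moved the median of all genes to 0.48, gave 1377 and 1. Of the pathway genes 5 were higher, against 15 with library totals alone, 10 with no filter and 10 with the replicate block, which lost none of the 5. Leaving out 1 library gave 133 to 277 higher and 1 to 29 lower genes, and 2 to 6 higher pathway genes. Leaving out both libraries of numbers 1 to 4 gave 135, 136, 197 and 94 higher, 11, 2, 3 and 1 lower, and 2, 1, 3 and 1 higher pathway genes. Mif turned to 0.16 with library totals alone. The causes of these changes were not tested. Few reads limit what can be said of H2-DMa, H2-DMb1 and the genes too low to test.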
